A study of Neurospora crassa with 12 samples.

Results

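The genes described here are the mating-type, pheromone and pheromone receptor genes of the filamentous ascomycete Neurospora crassa, 7 of the 9730 genes in the read-count table. They were chosen by locus as the genes of the mat A idiomorph (matA-1, NCU01958; matA-2, NCU01959; matA-3, NCU01960), the 2 pheromone precursor genes (ccg-4, NCU02500; mfa-1, NCU16992) and the 2 pheromone receptor genes (pre-1, NCU00138; pre-2, NCU05758). The libraries came from a study of clr-5 (NCU05383), which encodes a zinc binuclear cluster transcription factor, and of its part in cellulose degradation and amino acid use. Δclr-5, a deletion strain, and WT, the wild type of the Fungal Genetics Stock Center that the OR74A reference stands for, were each grown as mycelium and then moved to 3 media that all held 2% Avicel, a microcrystalline cellulose. These media were Avicel with histidine (50 mM) and Avicel with leucine (50 mM), both without the inorganic nitrogen of Vogel's salts, and Avicel with ordinary Vogel's salts. There were 2 cultures for each strain and medium, 12 libraries in all, and the time on the new medium is 8 h by the sample labels, while the study's methods give a shorter one.

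Neurospora crassa is heterothallic: a strain carries either the mat A or the mat a idiomorph at a single locus and mates only with a strain of the other type. The product of matA-1 is an alpha-domain transcription factor that sets mat A identity and acts in vegetative incompatibility between the mating types, while matA-2 and matA-3, an HMG-box gene, act after fertilization. Mat A cells express ccg-4, a clock-controlled gene whose peptide pheromone resembles the alpha-factor of Saccharomyces cerevisiae, and pre-1, the receptor for the lipid-modified mat a pheromone encoded by mfa-1. Mat a cells express mfa-1 and pre-2, the receptor for the ccg-4 pheromone. Female structures form when nitrogen is scarce, and conidia, the asexual spores, can serve as male cells.

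Each strain is 1 isolate from the stock center, and the OR74A reference is mat A. The mating type of the Δclr-5 isolate is given neither in the labels nor in the study's methods, and the mat a gene was not analysed here. Deletion of clr-5, the mating type and any other difference between the isolates therefore cannot be told apart. In RNA from a whole culture, a smaller number of cells that express a gene cannot be told apart from less RNA per cell. Total counts ranged over the 12 libraries between 16797962 and 20381308, with a median of 18400977, and the Δclr-5 cultures on Avicel differed most between replicates. The targeted gene followed its labels: clr-5 had 27 to 63 counts in the 6 Δclr-5 libraries and 301 to 1035 in the 6 WT libraries.

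Levels are CPM, read counts per 1e6 counts of library totals scaled by the trimmed mean of M-values (TMM). A gene was called when edgeR's quasi-likelihood test gave an adjusted p under 0.05, by Benjamini-Hochberg over the 8805 genes tested, and its log2 fold change was 0.5 or more in either direction. All adjusted p-values of single genes below come from this test, with n = 2 cultures in each group. Of the 7 mating genes, 6 passed the filter on low counts, and matA-2 did not.

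Transcripts of the mat A idiomorph were found only in WT. The 3 genes lie side by side on chromosome I of the NC12 assembly, matA-3 at 1857194 to 1858469, matA-2 at 1859093 to 1860424 and matA-1 at 1860692 to 1862194, and none of the 7 mating genes overlaps another annotated gene. matA-1 had 0 counts in each of the 6 Δclr-5 libraries. In WT it had 59.3 and 47.0 CPM with histidine, 123 and 94.3 CPM with leucine and 9.44 and 9.37 CPM on Avicel. The strains did not overlap on any medium, and the 3 WT media did not overlap with each other.

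Against the limit that 3 counts over the 2 Δclr-5 libraries would set, matA-1 was at least 109.5-fold lower in Δclr-5 on Avicel (adjusted p = 5.99e-05), at least 782-fold lower with histidine (adjusted p = 3.31e-06) and at least 1523-fold lower with leucine (adjusted p = 3.4e-06). These limits take the WT level as measured. With the counting error of both strains included, the lower ends of the exact 95% intervals were 88.4-fold, 635-fold and 1238-fold. All such limits and intervals cover counting error only. Fitted fold changes of a gene with no counts in one group depend on the prior count and are not given. Counts of 0 also cannot tell a gene that the Δclr-5 isolate lacks from one that it does not transcribe.

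matA-2 and matA-3 had few counts. matA-3 had 0 counts in all 6 Δclr-5 libraries, and 23 and 16 counts in WT with histidine, 3 and 3 with leucine and 1 and 8 on Avicel. It passed the test with histidine, at least 13.6-fold lower in Δclr-5 with WT as measured (10.5-fold at the lower end of the exact 95% interval, adjusted p = 0.012), but this call was lost without Δclr-5 His replicate 1 (adjusted p = 0.0706), Δclr-5 His replicate 2 (0.061) or WT His replicate 1 (0.0529). It did not pass on Avicel (adjusted p = 0.0813) or with leucine (adjusted p = 0.132). matA-2, left out by the filter, had 0 counts in all 6 Δclr-5 libraries, 0 and 2 counts in WT with histidine, 10 and 4 in WT with leucine and 0 in both WT libraries on Avicel. With leucine it was at least 6.17-fold lower in Δclr-5 with WT as measured, and 4.39-fold lower at the lower end of the exact 95% interval. Per kb of gene span, the WT mean on leucine was 72.2 ± 13.4 CPM for matA-1, 0.326 ± 0.176 CPM for matA-2 and 0.149 ± 0.012 CPM for matA-3 (SD, n = 2), so that matA-1 made up nearly all of the signal of the idiomorph.

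**Figure D1:**
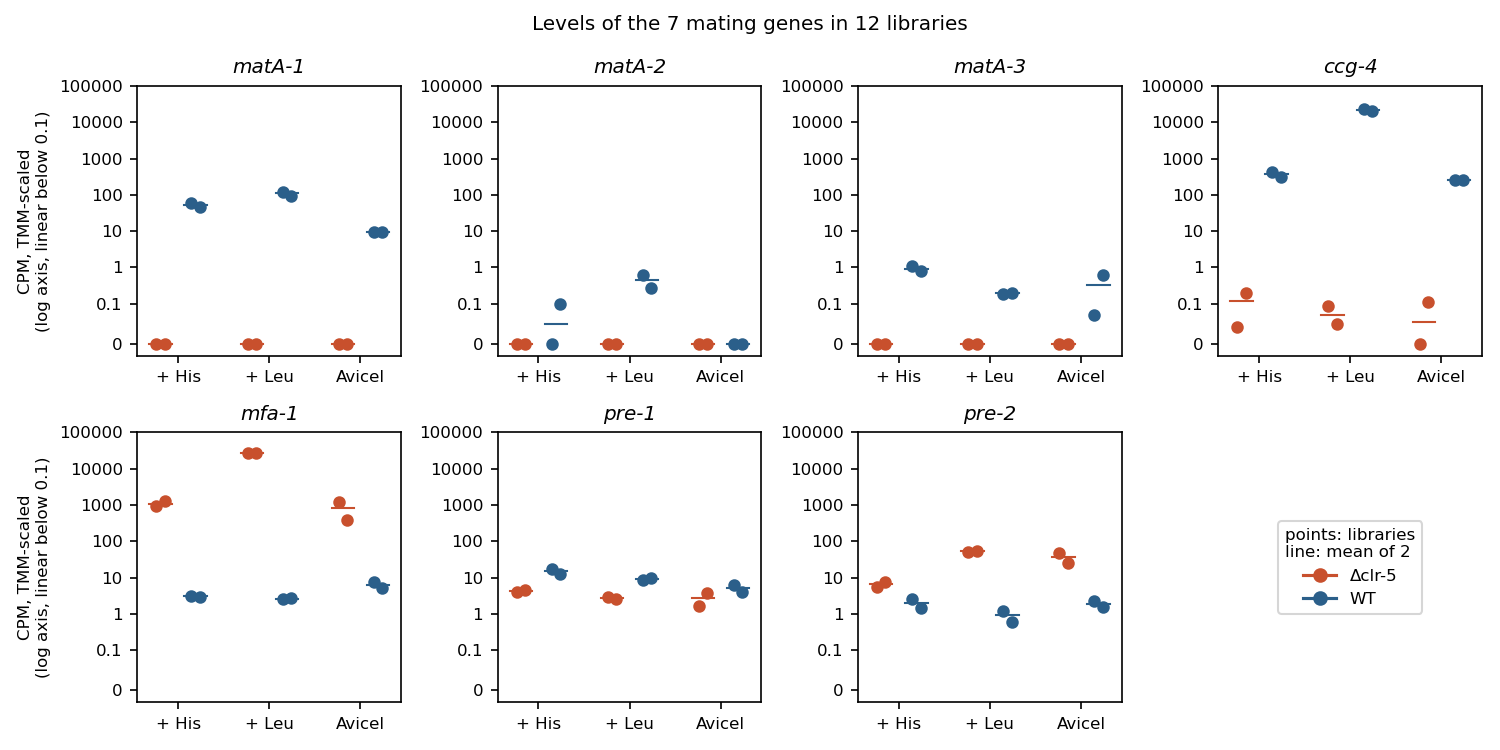
TMM-scaled CPM of each of the 7 mating genes by medium, on a log axis that is linear below 0.1, with a point for each of the 12 libraries and a line at the mean of 2 cultures. matA-1 lies at 0 in all 6 Δclr-5 libraries, while ccg-4 and mfa-1 lie orders of magnitude apart between the strains in opposite directions.

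The 2 pheromone precursor genes divided the strains in opposite directions: mfa-1 was the abundant precursor in Δclr-5 and ccg-4 in WT. On Avicel, mfa-1 (chromosome V, 3396270 to 3397430) had 1205 and 398 CPM in Δclr-5, against 7.54 and 5.17 CPM in WT. With histidine it had 929.6 and 1266 CPM in Δclr-5, against 3.12 and 2.91 CPM in WT. With leucine it had 26807 and 26989 CPM in Δclr-5, against 2.52 and 2.69 CPM in WT. The lowest Δclr-5 library was far above the highest WT library in each medium.

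The log2 fold change of mfa-1, Δclr-5 over WT, was 6.98 on Avicel (SE 0.55, adjusted p = 5.06e-05), 8.50 with histidine (SE 0.58, adjusted p = 6.36e-06) and 13.33 with leucine (SE 0.69, adjusted p = 1.83e-06). It was the largest of all 8805 genes with histidine and with leucine, and ranked 13 on Avicel. The Avicel value depends on the Δclr-5 cultures, which differed from each other: it was 5.97 without Δclr-5 Avicel replicate 1 and 7.57 without replicate 2. WT libraries held 40 to 107 counts of mfa-1, so that the mat a precursor was low but not at 0 in WT.

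ccg-4 (chromosome I, 2531832 to 2533997) showed the reverse order of the strains. The 6 Δclr-5 libraries held 1 and 4 counts with histidine, 2 and 1 with leucine and 0 and 2 on Avicel. In WT ccg-4 had 412 and 313 CPM with histidine, 22689 and 20176 CPM with leucine, and 253 and 248 CPM on Avicel. No Δclr-5 library came near a WT library.

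The ratio of ccg-4 CPM, Δclr-5 over WT, was 0.000228 on Avicel (95% counting interval 2.77e-05 to 0.000826, adjusted p = 1.87e-06), 0.000312 with histidine (0.000101 to 0.000729, adjusted p = 4.91e-07) and 3.34e-06 with leucine (6.89e-07 to 9.76e-06, adjusted p = 3.59e-08). The direction and the call were kept without any 1 of the libraries, although the value rests on 2 to 5 counts in Δclr-5 per medium and moved by more than 1.5 times with the Δclr-5 library left out on Avicel and with histidine. The fitted log2 fold change on Avicel was -11.10 without Δclr-5 Avicel replicate 1, against -11.94 with all libraries. Without replicate 2 the Δclr-5 Avicel group had no counts of ccg-4, so that fitted value is not given. With histidine the value was -10.82 without Δclr-5 His replicate 1 and -12.83 without replicate 2, against -11.55.

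With leucine, the precursor of each strain was among its most abundant transcripts. mfa-1 took 2.80% and 2.98% of all gene counts in the 2 Δclr-5 cultures and was the most counted gene in both. ccg-4 took 2.06% and 1.79% of all gene counts in the 2 WT cultures and ranked 3 in both. Per kb of gene span, mfa-1 averaged 23168 ± 111 CPM in Δclr-5 and ccg-4 averaged 9895 ± 820.4 CPM in WT (SD, n = 2). The precursor of the other type stayed scarce in the same libraries: ccg-4 had 3 counts over both Δclr-5 libraries beside 1123324 of mfa-1, and mfa-1 had 82 counts over both WT libraries beside 678784 of ccg-4.

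**Figure D2:**
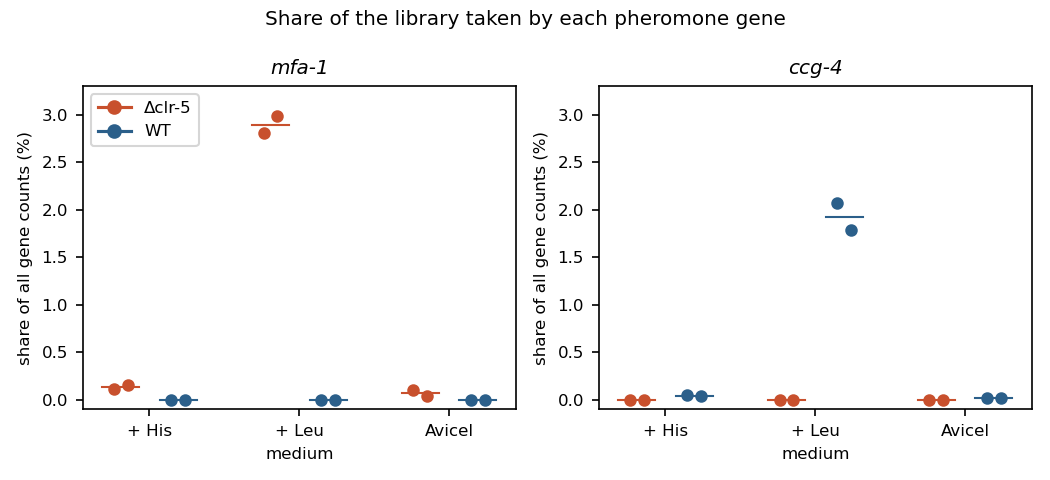
Share of all gene counts, in percent, taken by mfa-1 and by ccg-4 in each library, by medium, with a line at the mean of 2 cultures. mfa-1 reaches 2.80% and 2.98% in Δclr-5 with leucine and ccg-4 reaches 2.06% and 1.79% in WT with leucine, and both lie near 0 in the other strain.

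The receptor genes also differed in opposite directions, by smaller folds. pre-2 (chromosome VII, 3727404 to 3729156), the receptor gene of mat a strains, had 47.3 and 24.6 CPM in Δclr-5 on Avicel, against 2.26 and 1.57 CPM in WT. With histidine it had 5.40 and 7.70 CPM in Δclr-5, against 2.52 and 1.48 CPM in WT. With leucine it had 51.8 and 53.4 CPM in Δclr-5, against 1.20 and 0.605 CPM in WT. Both Δclr-5 libraries were above both WT libraries on each medium, and least so with histidine.

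pre-2 was called higher in Δclr-5 on all 3 media, with a log2 fold change of 4.22 on Avicel (SE 0.41, adjusted p = 0.00014), 1.70 with histidine (SE 0.39, adjusted p = 0.0101) and 5.84 with leucine (SE 0.45, adjusted p = 3.02e-05). The call with histidine was lost without Δclr-5 His replicate 2 (adjusted p = 0.0757) or WT His replicate 2 (adjusted p = 0.083).

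pre-1 (chromosome III, 2752660 to 2756067), the receptor gene of mat A strains, was expressed in both strains. It had 1.65 and 3.71 CPM in Δclr-5 on Avicel, against 6.20 and 4.05 CPM in WT. With histidine it had 4.07 and 4.65 CPM in Δclr-5, against 17.3 and 12.2 CPM in WT, and with leucine 2.86 and 2.59 CPM in Δclr-5, against 8.81 and 9.81 CPM in WT. At this scaling the strains did not overlap on any medium, but were close on Avicel. As CPM of the library total they overlapped there, with 3.65 in Δclr-5 Avicel replicate 2 and 3.16 in WT Avicel replicate 2.

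pre-1 was called lower in Δclr-5 with histidine, with a log2 fold change of -1.76 (SE 0.34, adjusted p = 0.0039), and with leucine, at -1.77 (SE 0.35, adjusted p = 0.00675). The leucine call was lost without Δclr-5 Leu replicate 2 (adjusted p = 0.0606). On Avicel the value was -0.92 (SE 0.37, adjusted p = 0.0981), and it passed only without Δclr-5 Avicel replicate 2 (-1.63, adjusted p = 0.0127). Per kb of gene span, the receptor genes were far below the precursor of the same strain: with leucine, pre-2 averaged 30.0 ± 0.646 CPM in Δclr-5 and pre-1 averaged 2.73 ± 0.207 CPM in WT (SD, n = 2).

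Counted together, 4 of the 6 mating genes tested were called between the strains on Avicel, 2 higher and 2 lower in Δclr-5, where 20.1% of all genes tested were called, 11.8% higher and 8.37% lower. With histidine all 6 were called, 2 higher and 4 lower, against 21% of all genes, 8.27% higher and 12.8% lower. With leucine 5 were called, 2 higher and 3 lower, against 19.5% of all genes, 8.77% higher and 10.7% lower. Of the 6, matA-1, matA-3 and ccg-4 passed the filter on low counts only through their WT libraries. The 6 were also chosen as mating genes, so these counts are descriptions and no test of the group. The 3 strain comparisons share no libraries with each other, but they set the same 2 isolates against each other and come from the same fit. The higher genes were mfa-1 and pre-2 in each comparison.

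Within WT, leucine in place of inorganic nitrogen went with higher ccg-4 and matA-1. The log2 fold change of ccg-4, WT with leucine over WT on Avicel, was 6.42 (SE 0.36, adjusted p = 3.45e-07), an 85.5-fold difference that ranked 56 among all 8805 genes. matA-1 was 3.53 higher on the same scale (SE 0.21, adjusted p = 7.67e-06). These 2 were the only mating genes of the 6 tested that were called in this comparison, in which 41.9% of all genes were called and 22.2% were called higher. pre-1 had a log2 fold change of 0.86 (SE 0.35, adjusted p = 0.0636) and mfa-1 of -1.29 (SE 0.49, adjusted p = 0.0516). DESeq2 and edgeR with RLE scaling called mfa-1 lower, with adjusted p = 0.00747 by DESeq2 and adjusted p = 0.0465 with RLE scaling.

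Histidine gave another pattern in WT. matA-1 rose, with a log2 fold change of 2.50 over Avicel (SE 0.21, adjusted p = 2.54e-05), and pre-1 rose by 1.53 (SE 0.34, adjusted p = 0.00291), 2 of the 6 tested, where 52.1% of all genes were called and 27.7% were called higher. The value of ccg-4 was 0.53 (SE 0.29, adjusted p = 0.137), so that its level with histidine stayed near that on Avicel while its level with leucine did not. Scaling by library size alone raised the ccg-4 value to 1.09 (adjusted p = 0.00527), and the same scaling moved the median of all genes in this comparison to 0.63, against 0.08 with TMM. mfa-1 had a log2 fold change of -1.08 (SE 0.47, adjusted p = 0.074), which DESeq2 called (adjusted p = 0.0173).

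Set directly against leucine in WT, histidine gave a log2 fold change of -5.89 for ccg-4 (SE 0.35, adjusted p = 2.75e-07) and of -1.03 for matA-1 (SE 0.19, adjusted p = 0.00231). These 2 of the 6 tested fell, where 49.7% of all genes were called and 26% were called lower. matA-1 in WT was thus highest with leucine, lower with histidine and lowest on Avicel, each step past the test, while ccg-4 was called different only between leucine and either of the other 2 media.

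In Δclr-5 the leucine response appeared in mfa-1. Its log2 fold change, leucine over Avicel, was 5.07 (SE 0.49, adjusted p = 2.19e-05), and ranked 60 among all genes. It was 6.08 without Δclr-5 Avicel replicate 1 and 4.48 without replicate 2. This was the only call among the 4 mating genes that could be tested in Δclr-5, where 37.3% of all genes were called and 19.5% were called higher. Without Δclr-5 Avicel replicate 1, pre-2 was called too, at 1.10 (adjusted p = 0.008), against 0.55 with all libraries (SE 0.32, adjusted p = 0.198). pre-1 showed no detectable difference, at 0.01 (SE 0.37, adjusted p = 0.982).

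Histidine in Δclr-5 went with lower pre-2 and with no call in mfa-1. pre-2 had a log2 fold change over Avicel of -2.46 (SE 0.35, adjusted p = 0.000147), the only call of 4, where 54.9% of all genes were called and 27.6% were called lower. mfa-1 had 0.45 (SE 0.41, adjusted p = 0.368), and this value turned on the Δclr-5 Avicel cultures: it was 1.46 (adjusted p = 0.000463) without replicate 1 and -0.14 without replicate 2. pre-1 had 0.69 (SE 0.36, adjusted p = 0.123), and was called without Δclr-5 Avicel replicate 2 (1.39, adjusted p = 0.00724). Against leucine, histidine gave -4.61 for mfa-1 (SE 0.48, adjusted p = 1.49e-05) and -3.01 for pre-2 (SE 0.35, adjusted p = 4.26e-05), 2 of 4 called where 53% of all genes were called and 29.4% were called lower.

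**Figure D3:**
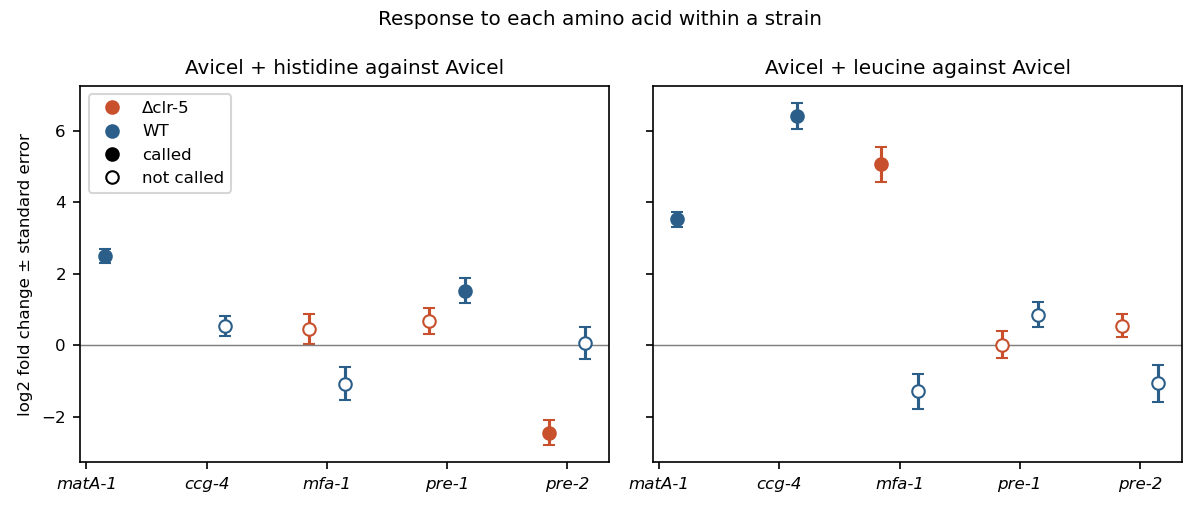
Log2 fold change ± standard error of 5 mating genes for Avicel with histidine (left) and Avicel with leucine (right), each over Avicel, in Δclr-5 and in WT, with called values filled. matA-1 and ccg-4 are not drawn for Δclr-5, where they had 0 to 4 counts a library. The largest values are those of ccg-4 in WT and mfa-1 in Δclr-5 with leucine, at 6.42 and 5.07.

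Whether the medium changed the difference between the strains was tested in the same fit. For mfa-1 the log2 fold change of Δclr-5 over WT was larger with leucine than on Avicel by 6.36 (SE 0.67, adjusted p = 0.00091). It was the only call of 4 in that test, where 5.54% of all genes were called and 1.85% were called higher, and was 7.37 without Δclr-5 Avicel replicate 1 and 5.76 without replicate 2. Without Δclr-5 Avicel replicate 1, 3 mating genes were called, and the others were ccg-4 (-6.96, adjusted p = 0.0106) and pre-2 (2.16, adjusted p = 0.0112). With all libraries ccg-4 had -6.12 (SE 1.74, adjusted p = 0.0672), which DESeq2 called (adjusted p = 0.000247). The ccg-4 value rests on 3 counts with leucine and 2 on Avicel in Δclr-5. It ranged from -6.96 to -2.88 with 1 library left out. The value of -2.88 is without Δclr-5 Avicel replicate 2, where Δclr-5 on Avicel had no counts of ccg-4, so it depends on the prior count.

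For pre-2 the strain difference was smaller with histidine than on Avicel, by -2.52 (SE 0.56, adjusted p = 0.0155). It was the only call of 4, where 14.3% of all genes were called and 9.03% were called lower. This call was lost without WT Avicel replicate 1 (adjusted p = 0.0526), WT Avicel replicate 2 (0.0632), Δclr-5 His replicate 1 (0.0651) or WT His replicate 1 (0.0696). Without Δclr-5 Avicel replicate 1, mfa-1 (2.54, adjusted p = 0.000264) and pre-1 (-1.30, adjusted p = 0.0362) were called as well.

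Between histidine and leucine, 3 of the 4 differed in their strain difference, where 11.4% of all genes were called, 4.88% higher and 6.54% lower. mfa-1 had -4.83 (SE 0.67, adjusted p = 0.00134) and pre-2 -4.14 (SE 0.59, adjusted p = 0.00182). ccg-4 had 6.51 (SE 1.19, adjusted p = 0.00592), a value that rests on 5 and 3 counts in Δclr-5 and was 7.23 without Δclr-5 His replicate 1 and 5.22 (adjusted p = 0.21) without Δclr-5 His replicate 2. The tests of a medium effect on the strain difference have libraries in common with one another. pre-1 was called in none of the 3 tests with all libraries.

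The labels give mycelium as the cell type. Markers of conidia, the other cells that a culture could hold, were higher in Δclr-5. Of the 7 markers (eas, con-6, con-8, con-10, con-13, fl and acon-3), 7 were called higher in Δclr-5 on Avicel, 4 with histidine and 2 with leucine, with a median log2 fold change of 3.61, 1.86 and 0.73 on these media, where 11.8%, 8.27% and 8.77% of all genes were called higher. Their summed level was 3746 and 36185 CPM in Δclr-5 on Avicel, against 215 and 269.6 CPM in WT. With histidine it was 69992 and 59774 CPM in Δclr-5, against 638 and 926 CPM in WT.

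The sum with leucine was 1062 and 1519 CPM in Δclr-5, against 596 and 573 CPM in WT. The sum was mostly eas, the hydrophobin of the conidial rodlet layer, on Avicel and with histidine in Δclr-5, where eas alone had 3293 and 34561 CPM and 69557 and 59389 CPM. With leucine eas had 240.1 and 458 CPM in Δclr-5, against 0.539 and 0.806 CPM in WT. The markers did not move together between media in Δclr-5.

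With leucine against Avicel in Δclr-5, 5 of the 7 markers were called lower and con-10 higher. Of all genes, 37.3% were called in this comparison, 19.5% higher. con-10 had 470.03 and 686 CPM with leucine and 28.6 and 150.3 CPM on Avicel, a log2 fold change of 2.69 (SE 0.60, adjusted p = 0.00591). With histidine con-10 had 34.4 and 25.9 CPM in Δclr-5, so that con-10 was highest with leucine, while the sum was lowest there. In WT con-10 rose with leucine as well, to 453 and 429 CPM, a log2 fold change of 5.91 over Avicel (SE 0.72, adjusted p = 0.000139). With leucine con-10 was not called between the strains (0.39, adjusted p = 0.67). None of the 7 markers was at 0 in Δclr-5, and their part in the levels of the mating genes was not tested.

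**Figure D4:**
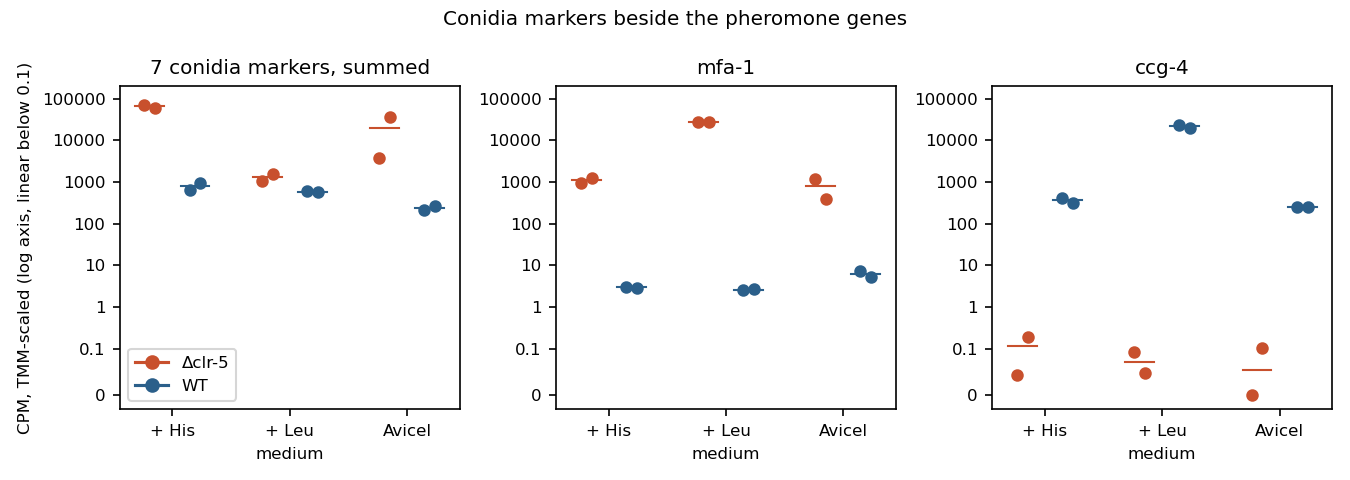
Summed TMM-scaled CPM of the 7 conidia markers (left), beside mfa-1 (middle) and ccg-4 (right), by medium and strain, on a log axis that is linear below 0.1, with a point for each library and a line at the mean of 2 cultures. In Δclr-5 with leucine the marker sum is 1062 and 1519 CPM and mfa-1 is 26807 and 26989 CPM. On the other media the Δclr-5 sum is mostly eas.

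The G protein, MAP kinase and other genes of pheromone and cell fusion signalling gave few calls between the strains. All 12 of this list (gna-1, gna-2, gna-3, gnb-1, gng-1, NCU00455, nrc-1, mek-2, mak-2, ham-5, pp-1 and so) were tested. On Avicel only nrc-1, the MAP kinase kinase kinase, was called, lower in Δclr-5 with a log2 fold change of -0.50 (SE 0.13, adjusted p = 0.023). With histidine only gna-3, a G protein alpha subunit gene, was called, higher by 0.60 (SE 0.14, adjusted p = 0.00904). Another 3 passed the adjusted p with histidine but not the fold threshold, gna-1 at -0.43 (adjusted p = 0.0212), gna-2 at -0.42 (adjusted p = 0.0309) and mak-2 at -0.41 (adjusted p = 0.0441).

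With leucine none of the 12 was called by edgeR or by DESeq2, and gna-2 passed the adjusted p alone (-0.47, adjusted p = 0.0241). An unadjusted p under 0.05 was found for 2 of the 12 on Avicel, 5 with histidine and 1 with leucine, and 20.1%, 21% and 19.5% of all genes were called on these media. The median log2 fold change of the list was -0.09 on Avicel, -0.11 with histidine and -0.07 with leucine, against -0.01, -0.03 and 0.03 over all genes tested. Between media, histidine against leucine in Δclr-5, 6 of 12 were called higher and 1 lower, where 53% of all genes were called, 29.4% lower. In WT 7 were called higher and none lower, where 49.7% of all genes were called, 26% lower. Called either way, the counts were near those over all genes, but nearly all of the list's calls were higher. The list's median log2 fold change was 0.54 in Δclr-5 and 0.56 in WT, against -0.04 and 0.03 over all genes.

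Genes known from sexual development changed in some members. Of 12 (fmf-1, rco-1, rcm-1, NCU00017, fsd-1, vib-1, ve-1, asd-4, asd-1, poi-2, tol and kal-1), 1 was called higher and 1 lower in Δclr-5 on Avicel, 1 higher and 3 lower with histidine, and none higher and 5 lower with leucine. These counts of 2, 4 and 5 of 12 stand beside 20.1%, 21% and 19.5% of all genes called. The higher gene was poi-2, known for its role in the sexual cycle, with 4.15 on Avicel (SE 0.77, adjusted p = 0.00468) and 4.71 with histidine (SE 0.54, adjusted p = 0.00016), and it was lower with leucine at -1.21 (SE 0.37, adjusted p = 0.0418). asd-1, a rhamnogalacturonase gene of ascus development, was lower on all 3 media, at -1.50 (adjusted p = 0.0254), -2.15 (adjusted p = 0.00727) and -1.40 (adjusted p = 0.0363) on Avicel, with histidine and with leucine.

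fmf-1, a regulator needed for both male and female fertility, was lower in Δclr-5 with leucine (-1.22, SE 0.19, adjusted p = 0.00168) and had -0.16 on Avicel and -0.15 with histidine, and NCU00017 was lower with histidine (-1.48, adjusted p = 0.000151) and with leucine (-1.35, adjusted p = 0.000502). vib-1, a regulator of heterokaryon incompatibility, was lower with histidine (-0.93, adjusted p = 0.0364) and with leucine (-0.90, adjusted p = 0.0447). tol, which mediates incompatibility between the mating types, was called on none of the media, with -0.22 on Avicel, 0.12 with histidine and 0.42 with leucine. The list's median was -0.0041 on Avicel, 0.07 with histidine and -0.11 with leucine.

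Genes beside the mat A idiomorph were transcribed in both strains. Within 50 kb on either side, 30 other genes are annotated, of which 28 are in the count table and all of these were tested. The other 2 are RNA genes that were not analysed here, among them the noncoding NCU14009, which lies 733 bp from matA-1. On Avicel 8 were called between the strains (28.6%, against 20.1% of all genes), 3 higher and 5 lower in Δclr-5. With histidine 10 were called (35.7%, against 21%) and with leucine 12 (42.9%, against 19.5%), 3 higher and 7 lower with histidine and 2 higher and 10 lower with leucine. Their median log2 fold changes were -0.10, -0.25 and -0.09 on Avicel, with histidine and with leucine, and the range over the 3 media was -3.11 to 2.47.

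The nearest tested gene on the matA-3 side, NCU01961, 1314 bp away, had -0.46 on Avicel (adjusted p = 0.0797), -0.27 with histidine (adjusted p = 0.213) and was called with leucine at -0.76 (adjusted p = 0.0076). The nearest tested gene on the matA-1 side, NCU01957, 3402 bp away, was called higher on Avicel at 0.92 (adjusted p = 0.0213), lower with histidine at -2.20 (adjusted p = 0.000175), and had 0.11 with leucine (adjusted p = 0.78). Called on all 3 media were NCU01972 and upr-1, higher in Δclr-5, and NCU01946 and NCU01944, lower. The 0 counts of matA-1 thus stood beside neighbours with counts in Δclr-5.

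**Figure D5:**
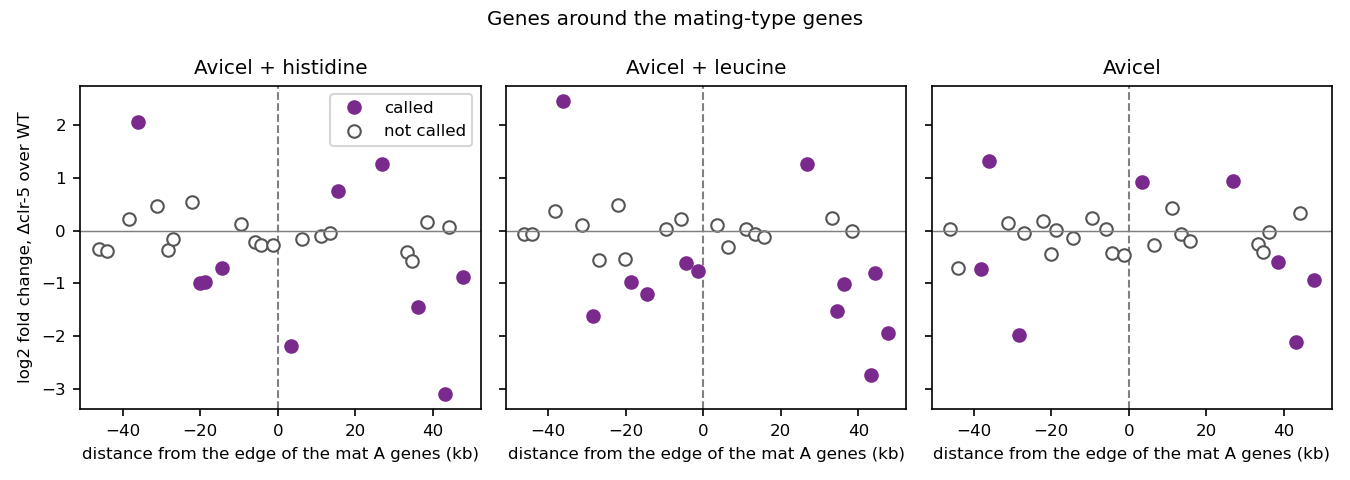
Log2 fold change, Δclr-5 over WT, of the 28 tested genes within 50 kb of the mat A genes against their distance in kb, by medium, with called genes filled and the idiomorph at the dashed line. Values spread around 0 on both sides of the line, with 10, 12 and 8 genes called with histidine, with leucine and on Avicel.

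matA-1 was 1 of 4 genes with 0 counts in all 6 Δclr-5 libraries and at least 10 counts in each WT library, where it had 125 to 2049 counts. The others were NCU09968, with 1370 to 2928 counts in WT (chromosome VI, 309546 to 315476), NCU09969, with 106 to 339 counts (chromosome VI, 314113 to 320071, overlapping NCU09968), and NCU16528, with 82 to 201 counts (chromosome II, 1152277 to 1154521). No gene had the reverse pattern. Genes that the OR74A reference lacks could not appear in this count.

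The genes whose pattern over the 12 libraries was most like that of each mating gene were found by Pearson correlation of log2 CPM, among 6833 genes with a mean log2 CPM of at least 3. The libraries share a strain in sixes and a medium in fours, so that these values are descriptions only. A high r does not mean a change of like size. For matA-1 they were NCU05414 (r = 0.948), clr-5 itself (0.942) and gh10-2 (0.934), and for ccg-4 they were NCU05980 (0.970), NCU02022 (0.917) and NCU07064 (0.915). NCU05980 had a mean of 219.8 CPM in WT with leucine, against 37.5 CPM in WT on Avicel.

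For mfa-1 the most alike were un-24 (r = 0.938), NCU00558 (0.920) and NCU09197 (0.913), and for pre-2 they were NCU00558 (0.988), NCU03851 (0.912) and NCU05681 (0.895). NCU00558 stood in both lists, with 10.9 to 24.6 CPM over the 12 libraries, against 0.605 to 53.4 CPM for pre-2. For pre-1 they were NCU02019 (0.899), NCU05852 (0.897) and mdm12 (0.893), the lowest of the 5 sets.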

How the data were processed

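RNA came from mycelium of 2 independent cultures per strain and medium, and was read on an Illumina instrument. The deposited table holds unnormalized read counts by gene, which the authors obtained, per the submitters' notes, with TopHat2 2.0.8b and HTSeq 0.13.5, on the OR74A genome. The strand setting is not given in the sources used here. Symbols and positions were taken by locus from the RefSeq gene table of assembly NC12.

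Counts were fitted with edgeR 4.0.16 (R 4.3.3) over all 12 libraries as 6 groups (filterByExpr, TMM, robust glmQLFit, 6 residual degrees of freedom). Of 9730 genes, 8805 were tested, and 925 were not. The SE is the absolute log2 fold change over the square root of F. The common biological coefficient of variation was 0.174. Alternatives were no filter on low counts, adjusted p alone, RLE or library size scaling, only the libraries compared, DESeq2 1.42.0, a block for the replicate number, and the fit without each library in turn. Floors are 3 counts over a group, and intervals are 95% exact binomial.

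Named genes are the 7 members, clr-5, genes within 50 kb of the idiomorph (the nearest, and up to 4 called), the 3 genes most alike each member, genes absent from 1 strain, and up to 4 called genes per list by size, with tol and vib-1 (leucine) added after their values were seen. Members and lists were chosen with earlier results of these data known.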

Additional observations from a re-analysis of the deposited data

Results flagged for a closer look

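In 5 cases the difference between the strains differed between media by the test of that difference (edgeR, adjusted p under 0.05, 2 cultures a group). Between histidine and Avicel the log2 fold change of pre-2, Δclr-5 over WT, differed by -2.52 (adjusted p = 0.0155), and the call did not hold with 4 of the 8 libraries left out in turn. Between leucine and Avicel that of mfa-1 differed by 6.36 (adjusted p = 0.00091). Between histidine and leucine the difference was -4.83 for mfa-1 (adjusted p = 0.00134), -4.14 for pre-2 (adjusted p = 0.00182) and 6.51 for ccg-4 (adjusted p = 0.00592), whose Δclr-5 arm rests on 5 and 3 counts.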

How the results depend on the processing

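With 2 cultures a group and 6 residual degrees of freedom, genes of few counts (matA-2, matA-3, ccg-4 in Δclr-5) limit what could be called. For the 6 mating genes tested, the counts called between strains (4, 6 and 5 on Avicel, histidine and leucine) were the same under each alternative that kept all libraries of the comparison. They were 4 to 5, 4 to 5 and 4 to 5 with 1 library left out. Within WT, leucine against Avicel gave 4 calls with only the libraries compared, against 2, and histidine against leucine gave 5 with library size scaling and 4 with only the libraries compared, against 2. In Δclr-5, histidine against Avicel gave 2 with library size scaling, against 1. DESeq2 gave 2 calls, against 1, for the strain difference between histidine and Avicel and for that between leucine and Avicel. Alternatives that added 1 call to 2 are not in these counts. In WT they called, besides those given earlier, pre-1 for leucine against Avicel with library size scaling (1.01, adjusted p = 0.0481). They also called mfa-1 for histidine against Avicel with only the libraries compared (-1.15, adjusted p = 0.00978). For histidine against leucine pre-2 was called in WT by DESeq2 (1.13, adjusted p = 0.0361), and pre-1 in Δclr-5 with only the libraries compared (0.71, adjusted p = 0.0303). With 1 library left out, calls ranged 2 to 3 for histidine against Avicel in WT, 1 to 2 for histidine and 1 to 2 for leucine against Avicel in Δclr-5, 0 to 3 for the strain difference of histidine and Avicel, 1 to 3 for that of leucine and Avicel and 2 to 3 for that of histidine and leucine. For the strain difference of histidine and Avicel, the lowest count came without WT Avicel replicate 1, WT Avicel replicate 2, Δclr-5 His replicate 1 or WT His replicate 1. The highest came without Δclr-5 Avicel replicate 1. The cause of these moves was not tested.

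Log2 values that changed sign were uncalled with all libraries. For pre-2, histidine against Avicel in WT, the value was -0.0059 with only the libraries compared and -0.37 to 0.39 with 1 library left out. For pre-1, leucine against Avicel in Δclr-5, it was -0.026 by DESeq2, -0.028 with RLE scaling, -0.0058 with only the libraries compared and -0.44 to 0.72 with 1 left out. For the pre-1 strain difference of histidine and leucine it was -0.24 with library size scaling and -0.22 to 0.28 with 1 left out. The other ranges with 1 left out were -1.67 to 1.32 for matA-3, leucine against Avicel in WT, and -0.36 to 4.16, -0.54 to 3.54 and -0.66 to 1.35 for ccg-4 in Δclr-5 (histidine against Avicel, leucine against Avicel, histidine against leucine). They were -0.14 to 1.46 for mfa-1, histidine against Avicel in Δclr-5, and -0.90 to 3.62 for the ccg-4 strain difference of histidine and Avicel. The ccg-4 upper ends 4.16, 3.54 and 3.62 are from the fit without Δclr-5 Avicel replicate 2. That fit leaves Δclr-5 on Avicel with no counts of ccg-4, so these ends depend on the prior count. Library size scaling moved the median of all genes by over 0.1 in 10 of the 12 comparisons. As CPM of the library total, 12 of 42 group means moved by over 1 SD. A block for the replicate number gave the same counts of calls in all 12 comparisons (4, 6, 5, 2, 2, 2, 1, 1, 2, 1, 1 and 3), and the numbers only name the cultures: deviations of same-numbered libraries correlated between -0.24 and 0.37 over 15 pairs of groups, 2 of them over 0.1.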
